A study of Mus musculus with 8 samples.

Results

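The cytosolic ribosomal protein genes are described here across 8 mouse libraries. They were chosen by name: protein-coding genes with a symbol of the form Rpl, Rps or Rplp and a number, plus Rpsa, which gave 84 of the 29713 genes in the tables. Of these, 77 are core genes, which encode proteins of the standard ribosome (31 of the small subunit, 46 of the large), and 7 are paralogues, extra copies of a core gene: Rpl3l, Rpl7l1, Rpl10l, Rpl22l1, Rpl36al, Rpl39l and Rps27l. A further 2 symbols of that form belong to genes that are not protein coding and were left out. The core gene Rps27 had no count in any library, so the values over core genes rest on 76 (30 small-subunit, 46 large-subunit).

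The cytosolic ribosome joins a small subunit, which reads the mRNA, to a large subunit, which forms the peptide bond, and each holds 1 copy of nearly all of its proteins. The exception is the stalk of the large subunit, where several copies of the acidic proteins Rplp1 and Rplp2 sit on Rplp0 and recruit elongation factors. Ribosomal protein mRNAs are short and abundant, and typically begin with an unbroken run of pyrimidines at their first base, the 5′ TOP sequence, through which their translation responds to growth signals.

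RNA was measured in 1 library per group, so the differences below have no replicate check, and p-values are not printed. Cerebellum, cortex and hippocampus came from mice of strain C57, as did the libraries labelled glia and neuron, whose source is given as brain. Embryonic fibroblasts (MEF) came from day 13.5 embryos of strain ICR and of strain OG2, a line known for a green fluorescent reporter under a Pou5f1 promoter. The library labelled R1 ESC stands for an embryonic stem cell line of the inner cell mass, strain 129X1 x 129S1. No group carried a treatment in the labels. The age and sex of the C57 mice, the isolation of neurons and glia and the passage of the cultured cells are details that the sources used here do not give.

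Expected counts summed to 5864673 in glia, the deepest library, and to 2147004 in the shallowest, labelled R1 ESC. Neuron markers (7 genes) summed to 2470 TPM in neuron, with all 7 at 10 TPM or more, and to 169 TPM in glia, where Rbfox3 and Nefl were at 0. Astrocyte markers (6 genes) summed to 2618 TPM in glia and 48.7 TPM in neuron. Fibroblast collagen and matrix markers (6 genes) summed to 11045 and 9521 TPM in the MEF libraries, 1270 TPM in glia, 179 TPM in the library labelled R1 ESC and 11.7 TPM in neuron. In the library labelled R1 ESC, 2 of 8 pluripotency markers reached 10 TPM, the list summed to 37.6 TPM, and Zfp42, Esrrb, Lin28a and Dppa5a were at 0, so the data go against its label. The mean effective length of the gene behind a count was 1739 bases there and 2488 bases in neuron, against 3021 to 3740 bases in the other 6 libraries.

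Start sequences are given because the family is known for the pyrimidine run of its mRNAs. RefSeq start windows (GRCm38.p6, 250 bases before the start to 50 after) matched 64 of the 84 members. A run of 8 or more pyrimidines (C or T, coding strand) lay in the last 100 bases of the window in 53 of these (82.8%), against 39.3% of 27025 genes. The letters CTTTC, on the coding strand of the same stretch, were in 33 members (51.6%) and in 14.6% of all genes, and can lie inside such a run. CCGGAAGT, the core of an ETS-type site, was in 12 members (18.8%) and 4.31% of all genes, and TATAAA in 7 (10.9%) and 15.7%, both searched on both strands of the whole window. The following windows, 40 bases before to 20 bases after the RefSeq start, are of a stalk gene, 2 genes that were low in the library labelled R1 ESC, and 3 genes of the paralogue pairs. Capitals mark the longest run of 5 or more pyrimidines in the 60 bases, or the last of them where runs tie, as in Rps27l, which holds an earlier run of the same length.
Rplp0, chr5:115559427-115559486, plus strand: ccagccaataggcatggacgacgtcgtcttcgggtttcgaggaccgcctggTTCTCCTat
Rpl10, chrX:74270776-74270835, plus strand: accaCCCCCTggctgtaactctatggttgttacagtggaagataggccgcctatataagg
Rps7, chr12:28635934-28635993, minus strand: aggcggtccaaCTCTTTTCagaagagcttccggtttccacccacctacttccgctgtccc
Rps27, chr3:90213629-90213688, minus strand: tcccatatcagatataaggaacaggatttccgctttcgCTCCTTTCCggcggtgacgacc
Rps27l, chr9:66946046-66946105, plus strand: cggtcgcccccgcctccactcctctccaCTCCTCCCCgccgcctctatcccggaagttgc
Rpl39l, chr16:10170188-10170247, plus strand: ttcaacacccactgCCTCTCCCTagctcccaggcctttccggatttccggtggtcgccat
The longest run was 9 bases in Rps27, Rps27l and Rpl39l, and in Rps27 it spanned the annotated start. These are matches of letters in a window, and the RefSeq start need not be the start used in these cells.

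The family took a different share of the mRNA in every library. By TPM (a level per unit of transcript length), members summed to 4.56% of the total in cerebellum, 5.48% in cortex, 5.59% in hippocampus, 7.36% in glia, 17.7% in neuron, 19.9% in ICR MEF, 20.8% in OG2 MEF, and 49.2% in the library labelled R1 ESC. The brain regions were lowest, glia stood just above them, neuron and both MEF libraries lay close together, and the library labelled R1 ESC was far above all others. As a share of expected counts, which weigh long genes more, the order of neuron and ICR MEF changed: neuron had 6.72% (95% Clopper-Pearson interval 6.70% to 6.75%), ICR MEF 6.35% and OG2 MEF 6.80%. The share of counts was 32.5% (32.5% to 32.6%) in the library labelled R1 ESC and 1.06% (1.05% to 1.07%) in cerebellum. These intervals cover counting error only. In bulk RNA, fewer cells of a type and less RNA per cell cannot be told apart, and a share also moves with what all other genes do.

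All 76 core genes were at 100 TPM or more in all 8 libraries. The core median was 547 TPM in cerebellum, 612 in cortex, 631 in hippocampus, 855 in glia and 1707 in neuron. It was 2418 in ICR MEF, 2483 in OG2 MEF, and 4410 in the library labelled R1 ESC. The medians of the 30 small-subunit and 46 large-subunit genes were 547 and 548 TPM in cerebellum and 1734 and 1701 TPM in neuron. Their gap was widest in OG2 MEF, at 2828 and 2186 TPM (1.29-fold), with 2615 and 2087 TPM in ICR MEF. In the library labelled R1 ESC, 63 of the 100 genes with the highest TPM were members. The number was 61 in OG2 MEF, 60 in ICR MEF, 45 in neuron, 30 in glia, 16 in hippocampus, 15 in cortex and 9 in cerebellum.

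**Figure D1:**
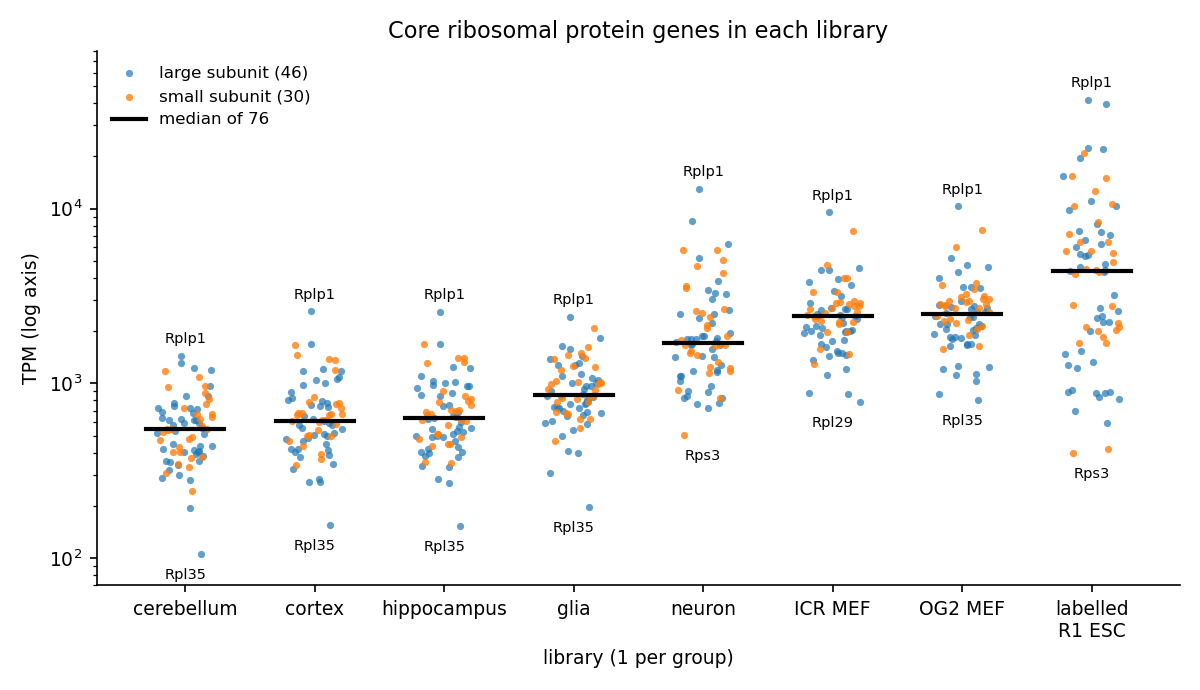
TPM (log axis) of the 76 core ribosomal protein genes in each of the 8 libraries, 1 point per gene, large subunit in blue and small subunit in orange, with the core median as a bar and the highest and lowest gene named. The points spread over 12.2-fold in ICR MEF and over 104-fold in the library labelled R1 ESC, and Rplp1 is the highest in all 8 libraries.

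The core genes were not level with each other within a library. The SD of their log2 TPM was 1.52 in the library labelled R1 ESC, 0.90 in neuron, 0.63 in ICR MEF and 0.60 in glia. The highest core gene stood 12.3-fold above the lowest in glia, 13.6-fold in cerebellum and 25.5-fold in neuron, but 104-fold in the library labelled R1 ESC. In the latter, 13 members made up 50% of the family's TPM, against 19 in neuron and 25 to 28 in the other 6 libraries. Its 5 highest members, Rplp1, Rplp2, Rpl13a, Rpl36 and Rpsa, held 29.7% of the family's TPM. In neuron the 5 highest were Rplp1, Rpl41, Rpl38, Rps24 and Rps15, with 22.2%, against 13.0% for the 5 highest of glia.

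By the mean log2 level over the libraries, the highest core genes were Rplp1 (12.5), Rpl13a (11.7), Rps12 (11.6) and Rpl41 (11.5), and the lowest were Rpl37 (9.21), Rpl12 (9.17), Rps3 (9.08) and Rpl35 (8.39). Rpl13a, a large-subunit protein also known for silencing inflammatory mRNAs, stood at 1311 TPM in cerebellum, 1671 in cortex, 1691 in hippocampus, 1576 in glia, 5225 in neuron, 4470 in ICR MEF, 4312 in OG2 MEF and 22118 in the library labelled R1 ESC. Glia was at the brain regions' level for this gene, and neuron was above the MEF libraries. Rpl35, a large-subunit protein near the exit of the peptide tunnel, was at 106 TPM in cerebellum, 155 in cortex, 153 in hippocampus, 196 in glia, 771 in neuron, 865 in ICR MEF, 800.1 in OG2 MEF and 596 in the library labelled R1 ESC. Its 4 lowest levels were those of the brain regions and glia, which also had the 4 lowest core medians. Its counts were not whole in any library, as when reads are shared with a near-identical copy, and its table length differed by 1.5-fold or more between libraries, so its low level is uncertain. With 1 library per group no error is at hand for the steps of this order, so neighbours such as Rps12 and Rpl41 are not told apart.

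Across the 76 core genes, log2 levels were correlated between cortex and hippocampus (Pearson r 0.99) and between the MEF libraries (0.96). The correlation was 0.87 between glia and OG2 MEF and 0.59 between glia and neuron. The library labelled R1 ESC had a correlation of 0.67 with neuron and of 0.37 to 0.49 with the other 6 libraries. These are descriptions over genes that share their lengths and base composition in every library.

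A gene was called higher on one side of a comparison when every library of that side had at least 10 TPM and, on TPM with 1 added, none of them was less than 2-fold above any library of the other side. The share of all testable genes that met this rule is the background for the members' count. It was counted on the deposited TPM and at the 2-fold gap alone. Counts under another scaling or gap have no background here. Log2 ratios are differences of the sides' mean log2(TPM + 1), and understate the change of low genes. Folds are between the nearest libraries of the sides, on TPM, with 95% intervals for counting error.

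Neuron and glia come from the same source and strain, and their comparison asks how the family differs between these brain cell types. The family was higher in neuron: 69 of 76 core genes had a positive log2 ratio, with a median of 1.03 (2.04-fold), while all 11185 genes tested had a median of -0.95. The rule called 41 core genes higher in neuron, against a background of 18.7%, and 0 lower, against a background of 49.1%. The medians of the small and large subunit were 1.00 and 1.13. TMM factors of the TPM, which centre the libraries on typical genes, moved the median over all genes from -0.95 to 0.02 and that of the core to 1.85.

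Rpl38, a large-subunit protein known for a role in the translation of Hox mRNAs, was 6236 TPM in neuron and 1050 TPM in glia (5.94-fold, 5.42 to 6.52). In the brain regions it was 969, 1082 and 963 TPM, the level of glia. Rps29, a zinc-binding small-subunit protein, was 5055 TPM in neuron and 861 TPM in glia (5.87-fold, 5.33 to 6.48). Here glia was below each brain region, at 964, 1365 and 1318 TPM for cerebellum, cortex and hippocampus. Rplp1 of the stalk was 12968 TPM in neuron and 2407 TPM in glia (5.39-fold, 5.14 to 5.65). At the other end were 3 genes that lay below glia on the reported scale and above it with TMM factors of the TPM or with CPM: Rpl7 (847 TPM in neuron, 1280 TPM in glia), Rpl10 (1097 and 1386 TPM) and Rps4x (1241 and 1501 TPM). Rpl7 contacts the 5S rRNA, Rpl10 completes the large subunit late in its assembly, and Rps4x is the X-linked gene of a small-subunit protein. None of the 3 met the rule for a lower gene.

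Gene length moved with this result. The core genes have a median effective length of 504 bases (200.8 for Rpl38 to 1693 for Rpsa), against 2404 bases for all genes that reach 10 TPM. Over all genes tested, the 560 shortest (median 396 bases) had a median log2 ratio of 1.26 between neuron and glia, or 1.28 without the 46 members among them, and the 560 longest had -2.14. With the trend over 20 length bins taken away, the core median was 0.16 beside 0 over all genes tested, with 14 core genes called higher and 2 lower. The share of all genes called on that scale was not counted. Rpl12, Rpl21, Rpl27a, Rpl35, Rpl37, Rpl38, Rpl41, Rpl6, Rplp1, Rplp2, Rps2, Rps20, Rps29 and Rpsa were called higher under all 5 other scalings, which are 2 kinds of TMM factors, counts scaled to the library total (CPM), TPM rescaled to the genes outside the family, and removal of the length trend. Among these genes, Rpl35, Rpl6, Rps2 and Rps20 had table lengths that differed by 1.5-fold or more between libraries. What the length trend is due to was not tested.

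**Figure D2:**
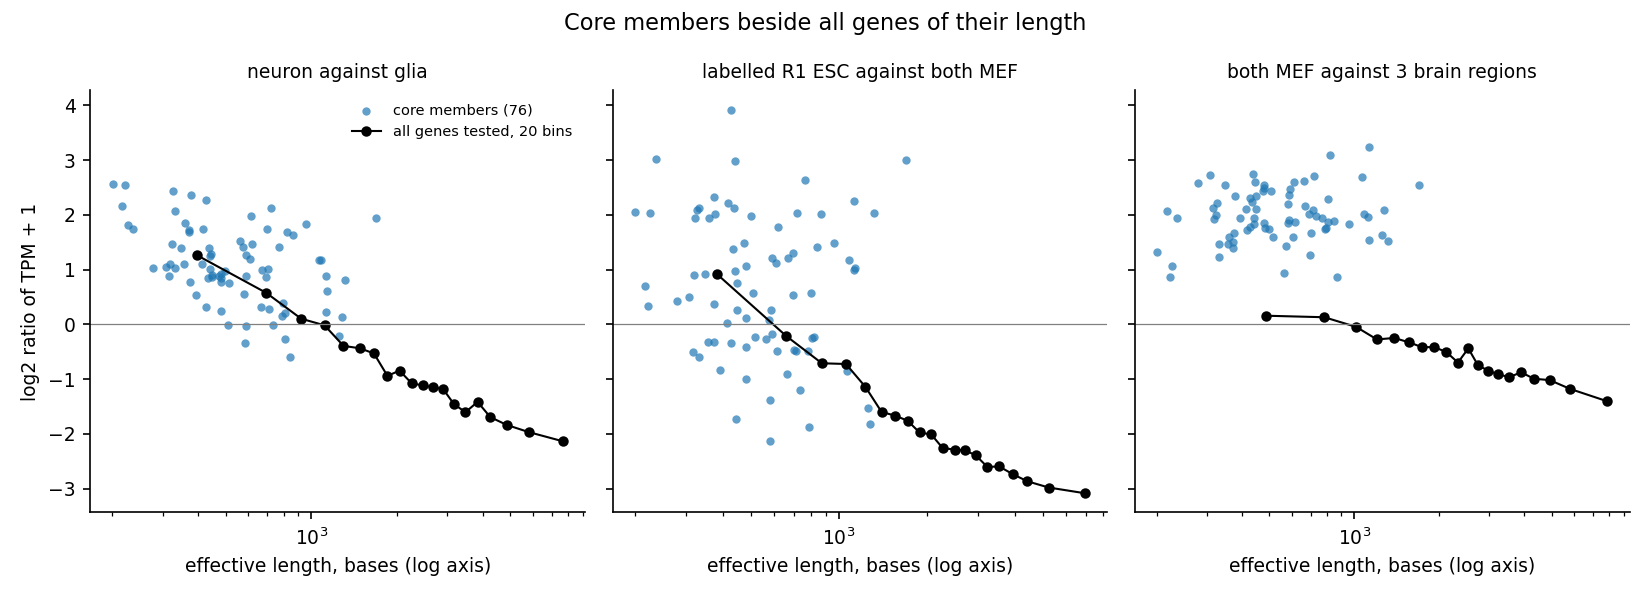
Log2 ratio of each of the 76 core genes (points) against its effective length in bases (log axis) in 3 comparisons, with the median of all genes tested in 20 length bins as a line. In neuron against glia and in the library labelled R1 ESC against the MEF libraries the line falls with length and passes through the members, and in MEF against brain regions the members lie above it.

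Neuron against the 3 brain regions gave a like picture. All 76 core genes had a positive ratio, the median was 1.58 (2.98-fold), and all 10178 genes tested had a median of -0.99. The rule called 61 core genes higher (background 7.16%) and 0 lower (background 42.1%). With the length trend taken away the median was 0.50 and 14 genes were called. Rpl41, the smallest ribosomal protein, was 747, 1174 and 976 TPM in cerebellum, cortex and hippocampus and 8455 TPM in neuron (7.20-fold above cortex, 6.75 to 7.68). Rps20 was 243, 369 and 350 TPM in these regions and 2408 TPM in neuron (6.53-fold above cortex, 5.99 to 7.14). The table length of Rps20 differed by 1.5-fold or more between libraries, and the part of this in its fold was not tested. Rpl4, Rpl10 and Rpl7 had the lowest ratios, at 0.32, 0.36 and 0.48. Both comparisons use the neuron library, so neither stands for the other. Markers of other cell types moved with this comparison: the 7 neuron markers summed to 2470 TPM in neuron and 5781 to 6857 TPM in the brain regions, the 6 oligodendrocyte markers to 34.2 TPM and 4468 to 6006 TPM, and the 6 astrocyte markers to 48.7 TPM and 1067 to 2515 TPM. Their part in these ratios was not tested.

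Glia stood close to the brain regions. Its core median was 0.55 above them (1.47-fold), 72 of 76 ratios were positive, and the median over all 11347 genes tested was -0.02. The rule called 5 core genes higher, Rpl22, Rpl7, Rplp0, Rps15a and Rps4x, against a background of 15.4%, and 0 lower against 17.1%. The 5 of 76 (6.58%) lie below that background. Rplp0 was 383, 347 and 406 TPM in cerebellum, cortex and hippocampus and 1081 TPM in glia (2.66-fold above hippocampus, 2.45 to 2.90), and was the 1 gene called under all 5 scalings. Rps29, Rpl37 and Rps21 were at the low end, with ratios of -0.48, -0.25 and -0.25. Glia also held fibroblast markers, 1270 TPM over 6 of 6 genes against 56.4 to 58.3 TPM in the brain regions, and their part in these ratios was not tested.

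The MEF libraries had the whole core family at a higher level than the brain regions. All 76 core genes had a positive ratio, with a median of 1.94 (3.84-fold), beside -0.61 over all 10730 genes tested. The rule called 71 core genes higher (background 12.8%) and 0 lower (background 32.0%). With a 4-fold gap it called 23, and the share of all genes at that gap was not counted. Without the length trend the median was 1.85 and 67 genes were called, and the same 67 were called under all 5 scalings. The 537 shortest of all genes had a median ratio of 0.16, or -0.05 without the 54 members among them.

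Rplp0 had the largest ratio, with 3667 TPM in ICR MEF and 3501 TPM in OG2 MEF, 8.62-fold above hippocampus (7.97 to 9.34). Rps2, a small-subunit protein that lines the mRNA entry side, was 406, 786 and 780 TPM in cerebellum, cortex and hippocampus and 4741 and 6038 TPM in ICR MEF and OG2 MEF (6.03-fold, 5.71 to 6.37). Counts of Rps2 were not whole in 7 of 8 libraries, and its table length differed by 1.5-fold or more between libraries. The part of these in its fold was not tested. Rps19, whose human counterpart is mutated in Diamond-Blackfan anaemia, was 332, 544 and 449 TPM in the regions and 2872 and 2937 TPM in the MEF libraries (5.28-fold, 4.83 to 5.78). No MEF library overlapped a brain region for any of these, which the rule requires of every gene it calls. The 5 genes that missed the rule were Rpl21, Rpl29, Rps15, Rps21 and Rps29. Rps29 was 2258 and 2121 TPM in ICR MEF and OG2 MEF against 964 to 1365 TPM in the regions, a log2 ratio of 0.86.

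The library labelled R1 ESC split the family against the MEF libraries. The core median was 0.63 (1.55-fold), with 50 ratios positive and 26 negative, beside -2.01 over all 8461 genes tested. The rule called 31 core genes higher (background 9.53%) and 7 lower (background 66.6%): Rpl10, Rpl19, Rpl39, Rpl4, Rpl7a, Rps3 and Rps7. The split depends on the scaling, and backgrounds under the other scalings were not counted. TMM factors of the TPM, which moved the median over all genes to 0.12, gave 68 higher and 0 lower, CPM gave 51 and 0, and TPM rescaled to the genes outside the family gave 43 and 3. TMM factors of the counts gave 42 and 4, and removal of the length trend gave a median of 0.23 with 29 and 12. Of the 31 genes, 27 were called higher under all 5 scalings, and of the 7 lower genes 0. Epithelial markers (6 genes) summed to 187 TPM in the library labelled R1 ESC, where 2 reached 10 TPM and Krt5 was at 0, and to 19.1 and 10.6 TPM in ICR MEF and OG2 MEF, and their part in these ratios was not tested.

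Rplp2 of the stalk was 2663 TPM in ICR MEF, 2549 TPM in OG2 MEF and 39427 TPM in the library labelled R1 ESC (14.8-fold, 14.3 to 15.4). Rpl36, a large-subunit protein, was 2657 and 2777 TPM in the MEF libraries and 21905 TPM there (7.89-fold, 7.53 to 8.26). Rpsa, the laminin-receptor protein of the small subunit, was 2531 and 2697 TPM in the MEF libraries and 20918 TPM there (7.76-fold, 7.62 to 7.89). Each of these was also far above all brain libraries. Rpl10 went the other way, with 3803 and 4031 TPM in the MEF libraries and 888 TPM in the library labelled R1 ESC (4.28-fold lower, 4.06 to 4.52). Rps7 was 1469 and 1630 TPM in the MEF libraries and 421 TPM there (3.49-fold lower, 3.25 to 3.75). Rps3, which lines the mRNA entry channel and also acts in DNA repair, was 1289 and 1583 TPM in the MEF libraries and 402 TPM there (3.21-fold lower, 3.04 to 3.38). In the brain regions Rpl10 was 631 to 1101 TPM, Rps7 380 to 502 TPM and Rps3 308 to 354 TPM, so the library labelled R1 ESC lay among them for Rpl10 and Rps7 and just above them for Rps3. With TMM factors of the TPM the log2 ratios to the MEF libraries were -0.18 for Rpl10, 0.08 for Rps7 and 0.13 for Rps3, so the direction of the last 2 turned. The promoter windows printed above for Rpl10 and Rps7 hold runs of 6 and 8 pyrimidines, both lying before the RefSeq start and so outside the mRNA as annotated there.

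Across the 76 core genes, the ratios of neuron to glia and of the library labelled R1 ESC to the MEF libraries, which share no library, had a Pearson r of 0.55 and a Spearman rho of 0.53. Rplp1, Rplp2, Rpl36, Rpl38, Rpl41 and Rpsa were above the core median in both, and Rpl10 and Rpl4 had a negative ratio in both. Rps3 was below the core median in both, with ratios of 0.12 and -1.83. Other genes went opposite ways, among them Rpl7 (-0.59 and 1.41), Rps4x (-0.27 and 0.57) and Rpl35 (1.97 and -0.48). The genes share their lengths in both comparisons. Spearman's rho of the ratio with effective length was -0.42 for neuron to glia and -0.14 for the library labelled R1 ESC to the MEF libraries, against 0.11 for MEF to brain. For neuron to glia the 38 shortest core genes had a median ratio of 1.10 and the 38 longest 0.87, and the 2 medians were 0.91 and 0.40 for the library labelled R1 ESC.

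**Figure D3:**
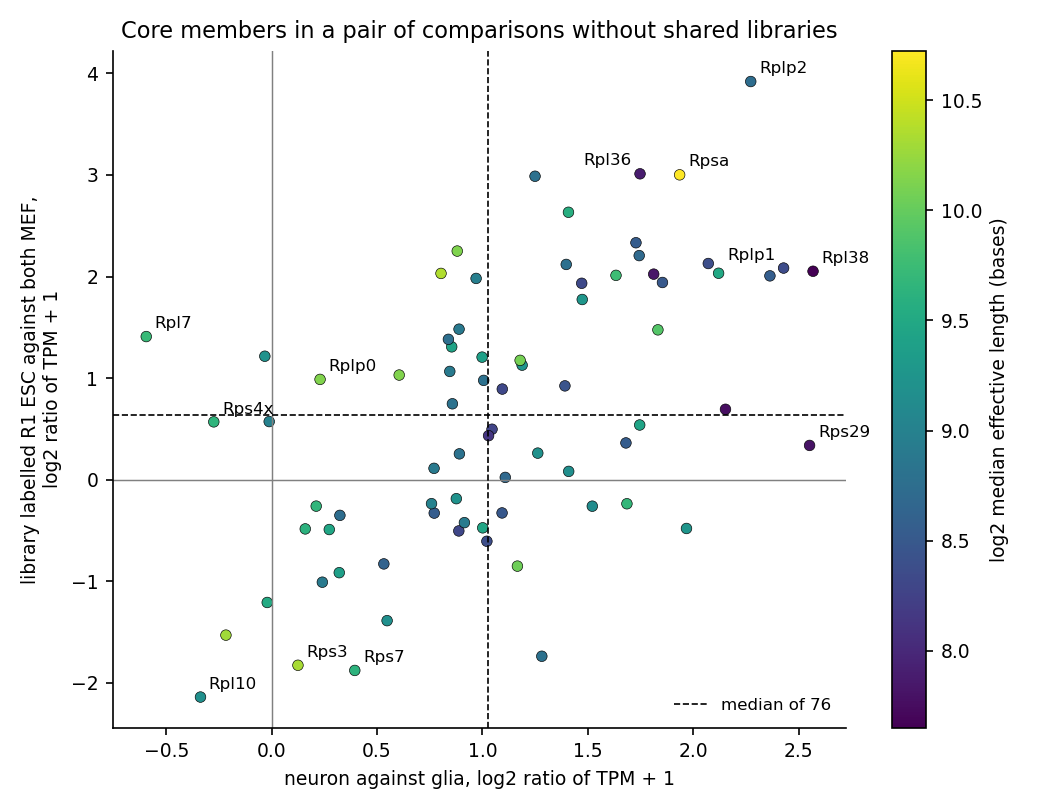
Log2 ratio of neuron to glia (x axis) against log2 ratio of the library labelled R1 ESC to both MEF libraries (y axis) for 76 core genes, coloured by log2 of the median effective length, with dashed lines at the core medians of 1.03 and 0.63. Rplp2 lies at the top with a y value of 3.92, and Rpl10 at the lower left with -0.34 and -2.14.

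Within the brain and within the MEF libraries, no core gene was called. The ratio of cerebellum to the mean of cortex and hippocampus was negative for 67 of 76 core genes, with a median of -0.26 (log2) beside 0.14 over all 11199 genes tested. The rule called 0 higher and 0 lower, against backgrounds of 7.43% and 7.39%. Rps2 (406 TPM in cerebellum, 786 and 780 TPM in cortex and hippocampus) and Rplp1 (1439 TPM, 2593 and 2569 TPM) had the lowest ratios, at -0.94 and -0.84, and Rpl18 (423 TPM, 324 and 335 TPM) the highest, at 0.36. The limits given above for the counts and table length of Rps2 hold here too. Red cell markers (6 genes) summed to 1298 TPM in cortex, 1147 in hippocampus and 2376 in cerebellum, and their part in these ratios was not tested. Cortex and hippocampus differed by a median of -0.03, with 0 genes called in either direction against backgrounds of 3.45% and 2.20%.

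ICR MEF and OG2 MEF, the same kind of cell from different strains, differed by a median of -0.06, with 0 called higher (background 2.13%) and 0 lower (background 0.563%). Rps18 had the lowest ratio, with 1578 TPM in ICR MEF and 2978 TPM in OG2 MEF, a log2 ratio of -0.92. Rpl29, a heparin-binding large-subunit protein, was 780 and 1235 TPM, a ratio of -0.66. Rpl23, which can bind Mdm2, was 1447 and 1027 TPM, the highest ratio. Counts of Rps18 and Rpl29 were not whole in 7 of 8 libraries including both MEF libraries, and those of Rpl23 in 2, neither of them a MEF library.

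The 3 stalk genes did not keep a fixed proportion. Rplp1 stood at 3.76 times the TPM of Rplp0 in cerebellum, 7.48 in cortex, 6.32 in hippocampus, 2.23 in glia, 10.2 in neuron, 2.60 in ICR MEF, 2.94 in OG2 MEF and 5.91 in the library labelled R1 ESC. Rplp2 stood at 1.15, 1.72 and 1.38 times Rplp0 in cerebellum, cortex and hippocampus, 0.737 in glia, 3.04 in neuron, 0.726 in ICR MEF, 0.728 in OG2 MEF, and 5.55 in the library labelled R1 ESC. Glia and both MEF libraries had the lowest ratios to Rplp0, and neuron and the library labelled R1 ESC the highest for Rplp2. The ratio of Rplp1 to Rplp2 was 3.02 to 4.58 in 7 libraries and 1.06 in the library labelled R1 ESC. The 3 genes lie on different chromosomes (Rplp0 chr5:115559467-115563727, Rplp1 chr9:61913284-61914542, Rplp2 chr7:141447370-141451585). All 3 had counts that were not whole in any of the 8 libraries, so part of their reads was shared out between copies, and the part of this in the ratios was not tested.

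The paralogues differed from their core partners in how they varied. Rps27l, a p53-inducible copy of Rps27, was 66.0 TPM in cerebellum, 45.9 in cortex, 67.8 in hippocampus, 655 in glia, 117 in neuron, 1040.2 in ICR MEF, 1218 in OG2 MEF and 370 in the library labelled R1 ESC. It was 5.58-fold lower in neuron than in glia (4.58 to 6.84), while no core gene was called lower there, and this call held under all 5 scalings. In the MEF libraries it was 15.3-fold above hippocampus (10.8 to 22.6), a log2 ratio of 4.23 that was above that of every core gene, and in glia it was 9.65-fold above hippocampus (6.76 to 14.3). Both calls held under all 5 scalings. The lower value in the library labelled R1 ESC (2.81-fold below ICR MEF) was called on the reported scale and with the length trend removed, and under no other scaling.

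Its partner Rps27 had no count in any library. The tables gave Rps27 1 transcript of 255 bases, where GENCODE M21 has 345, with effective lengths of 64.7 to 112 bases. The retrogene Rps27rt (chr9:114982366-114982739), whose coding sequence of 252 bases has 0 differences from that of Rps27, took 1031, 1342 and 1351 TPM in cerebellum, cortex and hippocampus, 1648 in glia, 4160 in neuron, 3690 in ICR MEF, 4425 in OG2 MEF and 7656 in the library labelled R1 ESC. Reads of the 2 genes cannot be told apart over the coding sequence. Counts of Rps27rt were whole in every library all the same, so a whole count does not show that reads belong to 1 gene alone. Rps27rt is outside the naming rule and is not among the 84. Its order over the libraries was that of the core median except that neuron lay above ICR MEF. The coding sequences of Rps27 and Rps27l (GRCm38, GENCODE M21) are shown because their differences can set apart reads of Rps27l from those of Rps27 and Rps27rt within the coding part. Capitals mark the 60 of 252 positions where they differ.
Rps27, chr3:90212728-90213615, minus strand, 4 coding exons joined: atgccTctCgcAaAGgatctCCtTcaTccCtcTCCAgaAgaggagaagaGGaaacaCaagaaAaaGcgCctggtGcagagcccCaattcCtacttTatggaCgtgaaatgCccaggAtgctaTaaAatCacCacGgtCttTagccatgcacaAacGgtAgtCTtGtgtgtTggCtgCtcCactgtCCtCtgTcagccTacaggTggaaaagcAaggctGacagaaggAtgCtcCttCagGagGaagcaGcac
Rps27l, chr9:66946175-66949354, plus strand, 4 coding exons joined: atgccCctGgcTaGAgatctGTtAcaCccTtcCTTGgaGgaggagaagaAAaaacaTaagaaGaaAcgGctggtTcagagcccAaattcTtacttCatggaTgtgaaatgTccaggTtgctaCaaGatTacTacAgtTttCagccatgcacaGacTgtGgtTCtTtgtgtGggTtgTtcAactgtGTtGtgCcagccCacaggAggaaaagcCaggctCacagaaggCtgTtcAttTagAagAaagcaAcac
The counts of Rps27l were whole in every library, from 32 in hippocampus to 1282 in OG2 MEF.

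Rpl22l1, the copy of Rpl22 that can take its place on the large subunit, varied less than its partner. It was 251, 350 and 339 TPM in cerebellum, cortex and hippocampus, 296 in glia, 647 in neuron, 550 in ICR MEF, 655 in OG2 MEF and 637 in the library labelled R1 ESC. Rpl22 was 280, 271 and 332 TPM in the regions, 725 in glia, 720 in neuron, 1497 in ICR MEF, 1681 in OG2 MEF and 2360 in the library labelled R1 ESC. The paralogue was 56.3% of the pair's TPM in cortex (52.5% to 59.9%), 47.3% in cerebellum, 50.5% in hippocampus and 47.3% in neuron (45.0% to 49.6%), and 29.0% in glia (26.3% to 31.8%), 26.9% in ICR MEF, 28.0% in OG2 MEF and 21.3% in the library labelled R1 ESC. Brain regions and neuron thus had near-equal levels of both, and the other 4 libraries an excess of Rpl22. The table length of Rpl22 differed by 1.5-fold or more between libraries.

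Rpl36al, the intron-poor copy of the X-linked Rpl36a, moved with its partner. It was 274, 284 and 263 TPM in cerebellum, cortex and hippocampus, 348 in glia, 849 in neuron, 752 in ICR MEF, 646 in OG2 MEF and 3124 in the library labelled R1 ESC. Rpl36a was 340, 487 and 499 TPM in the regions, 648 in glia, 1799 in neuron, 1621 and 1851 in ICR MEF and OG2 MEF and 6620 in the library labelled R1 ESC. The paralogue's part of the pair lay between 25.9% in OG2 MEF and 44.6% in cerebellum. Their coding sequences are 87.7% identical.

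Rpl39l, a copy of the X-linked Rpl39 known from germ and tumour cells, had more than 1 count in the MEF libraries and the library labelled R1 ESC alone. It had 21 counts in ICR MEF (12.3 TPM), 22 in OG2 MEF (10.8 TPM), 29 in the library labelled R1 ESC (22.7 TPM), 1 in neuron and 0 in the 3 brain regions and glia, where 3 counts would be 2.19 to 3.82 TPM. The rule called it higher in the MEF libraries than in the brain regions, except with CPM. Rpl39 itself was 320, 420 and 422 TPM in cerebellum, cortex and hippocampus, 736 in glia, 1791 in neuron, 2126 in ICR MEF, 2535 in OG2 MEF and 696 in the library labelled R1 ESC. The paralogue was 3.16% of the pair in the last of these (2.12% to 4.50%), 0.574% in ICR MEF (0.355% to 0.877%) and 0.423% in OG2 MEF (0.265% to 0.640%). The coding sequences (GRCm38, GENCODE M21) are shown because their differences can set apart reads of the pair within the coding part of the transcripts. Capitals mark the 23 of 153 positions where they differ.
Rpl39, chrX:37082704-37085127, minus strand, 3 coding exons joined: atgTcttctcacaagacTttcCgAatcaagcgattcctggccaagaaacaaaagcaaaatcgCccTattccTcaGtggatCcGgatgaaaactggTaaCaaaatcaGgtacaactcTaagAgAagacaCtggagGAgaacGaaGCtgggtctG
Rpl39l, chr16:10174310-10174462, plus strand, 1 coding exon: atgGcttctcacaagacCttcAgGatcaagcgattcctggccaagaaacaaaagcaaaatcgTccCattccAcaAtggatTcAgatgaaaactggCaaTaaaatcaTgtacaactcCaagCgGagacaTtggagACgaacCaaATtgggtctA
Counts of both genes were whole in every library, which does not by itself show that no read came from a copy.

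Of the remaining paralogues, Rpl7l1, which is 56.7% identical to Rpl7 in coding sequence, was at 10 TPM or more in all 8 libraries. It was 51.2, 35.8 and 35.9 TPM in cerebellum, cortex and hippocampus, 81.9 in glia, 23.1 in neuron, 84.9 in ICR MEF, 84.3 in OG2 MEF and 50.1 in the library labelled R1 ESC. It was called lower in neuron than in glia (3.55-fold, 2.99 to 4.23), but not with TMM factors of the TPM or with the length trend removed. Rpl3l, the copy of Rpl3 known from skeletal and heart muscle, had 4, 3 and 2 counts in cerebellum, cortex and hippocampus, 1 in neuron and 0 in the other 4 libraries. Rpl10l, a retrogene copy of Rpl10 known from the testis, had 0 counts in every library, where 3 counts would be 1.09 to 2.25 TPM.

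**Figure D4:**
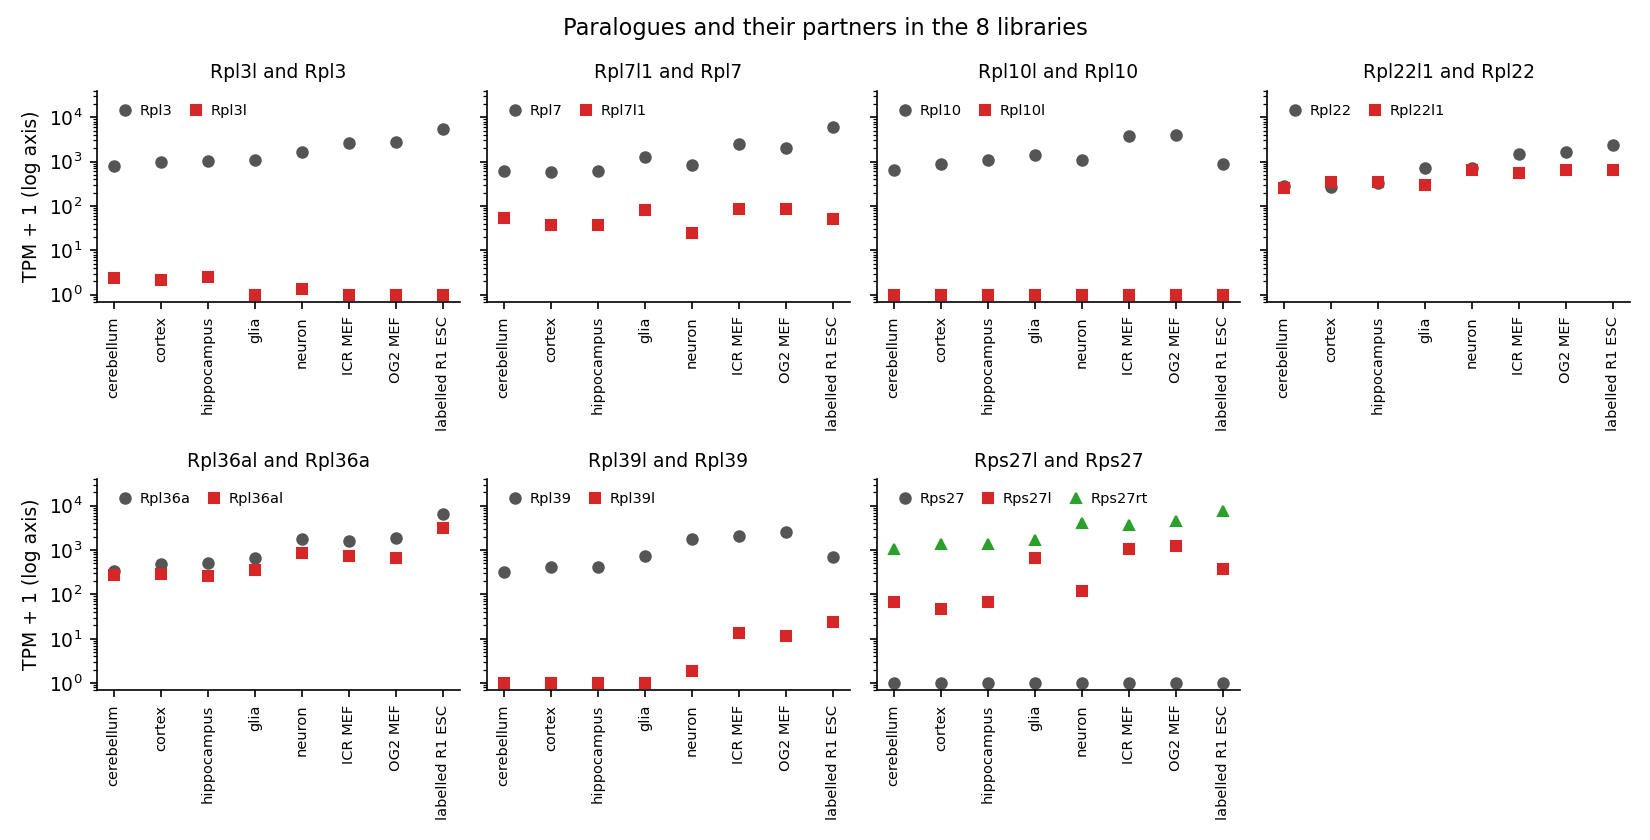
TPM with 1 added (log axis) of each paralogue (squares) and its core partner (circles) in the 8 libraries, with the retrogene Rps27rt (triangles) in the panel of Rps27l. Rps27l stands at 45.9 to 67.8 TPM in the brain regions and at 1040.2 and 1218 TPM in the MEF libraries, Rpl22l1 reaches its partner in the brain regions and neuron, and Rpl10l lies at 0 throughout.

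Other genes of the translation machinery did not all share the family's pattern. Fau encodes a ubiquitin-like fusion that releases the small-subunit protein eS30, and Rack1 encodes a scaffold protein that binds the small subunit. Fau was 130, 132 and 173 TPM in cerebellum, cortex and hippocampus, 188 in glia, 1359 in neuron, 328 in ICR MEF, 336 in OG2 MEF and 3294 in the library labelled R1 ESC. Neuron and the library labelled R1 ESC stood apart from the other 6 libraries. It was called higher in neuron than in glia (log2 ratio 2.85) and in the library labelled R1 ESC than in the MEF libraries (3.31), both under all 5 other scalings. For MEF against brain its ratio was 1.20, which missed the rule on the reported scale and met it under 4 of the 5 others. Rack1 was 402, 346 and 350 TPM in the regions, 672 in glia, 1096 in neuron, 2380 and 2449 in the MEF libraries, and 12469 in the library labelled R1 ESC. It was called higher for MEF against brain (log2 ratio 2.72) and for the library labelled R1 ESC against MEF (2.37) under all 5 other scalings, and was not called for neuron against glia (0.71) except with TMM factors of the TPM. Expected counts of Rack1 were 9457 in the library labelled R1 ESC, 7429 in ICR MEF and 9558 in OG2 MEF. Library totals were 2147004, 4805982 and 5404041. The gap of Rack1 in TPM was thus wider than that in share of counts, and the part of gene length in this was not tested. Counts of Fau were not whole in any library.

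Of 8 elongation factors, 2 were called higher and 2 lower in neuron than in glia, with a median of -0.06 that was above 0 under all 5 other scalings (up to 0.75 with TMM factors of the TPM), and 6 higher and 1 lower in the MEF libraries than in the brain regions (median 1.82). The shares of all genes called higher and lower were 18.7% and 49.1% for neuron against glia, and 12.8% and 32.0% for MEF against brain. The lower one was Eef1a2, the neuronal and muscle form of the factor that brings aminoacyl-tRNA to the ribosome, with 984, 900 and 811 TPM in cerebellum, cortex and hippocampus, 20.7 in glia, 460 in neuron, 0.19 in ICR MEF, 0 in OG2 MEF and 1.79 in the library labelled R1 ESC. Eef1a1, the general form, was 2263, 3381 and 3791 TPM in the regions, 7114 in glia, 2251 in neuron, 13223 and 13747 in the MEF libraries and 1836 in the library labelled R1 ESC. Glia and both MEF libraries were highest, and the lower call in neuron than in glia was lost with CPM and with TMM factors of the TPM.

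Initiation factors and other TOP mRNAs (15 genes) had 6 called higher and 1 lower in the MEF libraries than in the brain regions (median 1.16), beside 12.8% and 32.0% of all genes. Against the MEF libraries, the library labelled R1 ESC had 0 of them higher and 11 lower (median -1.69), near the 66.6% of all genes called lower there with a median of -2.01, and the direction turned with TMM factors of the TPM, to 4 higher and 1 lower (median 0.27). Tpt1, a growth-linked TOP mRNA, was 1381, 1459 and 1629 TPM in cerebellum, cortex and hippocampus, 3355 in glia, 3000 in neuron, 6601 and 7741 in the MEF libraries and 2659 in the library labelled R1 ESC. The host gene Gas5, a TOP transcript that encodes no protein, was 498 TPM in ICR MEF and 120 TPM in OG2 MEF, and was the 1 gene of these lists besides a short oxidative phosphorylation gene that was called between the MEF libraries. Ribosome biogenesis genes (18 tested) had 5 called higher and 6 called lower in the library labelled R1 ESC against the MEF libraries (median 0.34), where 9.53% of all genes were called higher and 66.6% lower, and 12 and 0 with TMM factors of the TPM. Among the 5 was Ncl, the nucleolar protein nucleolin, at 2479 TPM there against 307 and 282 TPM in the MEF libraries and 177 to 343 TPM in the other 5 libraries. Expected counts of Ncl were 4399 in the library labelled R1 ESC, 2889 in ICR MEF and 3064 in OG2 MEF. Library totals were 2147004, 4805982 and 5404041. The gap of Ncl in TPM was thus wider than that in share of counts, and the part of gene length in this was not tested.

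Lists of other short genes were set beside the family. Mitochondrial ribosomal proteins (77 genes), which belong to a separate ribosome, had 30 called higher and 3 lower in neuron than in glia (median 0.61), where 18.7% of all genes were called higher and 49.1% lower. In the MEF libraries against the brain regions 3 were called higher and 0 lower (median 0.06), where the shares of all genes were 12.8% and 32.0%. Short genes of oxidative phosphorylation had 45 of 55 higher and 1 lower in neuron than in glia (median 1.73), above the core median of 1.03 and beside the same 18.7% and 49.1% of all genes, and 18 and 4 once the length trend was removed (median 0.57). In the MEF libraries against the brain regions they had 0 of 54 higher and 6 lower, with a median of -0.43 that turned to 0.17 with TMM factors of the TPM, where the core median was 1.94. In the library labelled R1 ESC against the MEF libraries the short oxidative phosphorylation genes had 16 higher and 11 lower (median -0.01), beside 0.63 for the core, and their median ran from -0.24 with the length trend removed to 1.95 with TMM factors of the TPM. Mitochondrial ribosomal proteins had 15 of 76 higher and 19 lower there, with a median of -0.21 that was above 0 under all 5 other scalings.

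**Figure D5:**
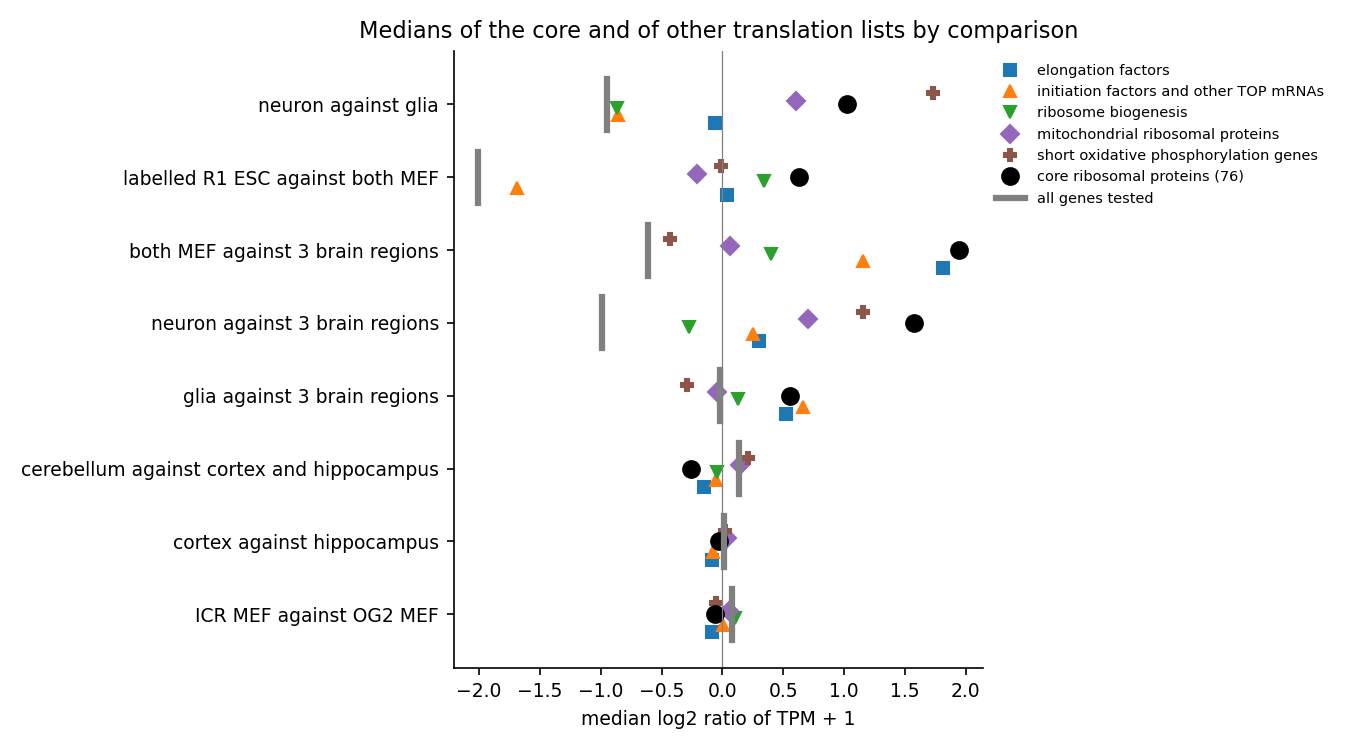
Median log2 ratio of the core ribosomal protein genes (black), of 5 other lists and of all genes tested (grey bar) in the 8 comparisons. The core lies at 1.94 for MEF against brain regions, where short oxidative phosphorylation genes lie at -0.43, and at 1.03 for neuron against glia, where they lie at 1.73.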

How the data were processed

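Each library held 1 gene table. Expected counts per gene were deposited by the authors, per the file headers, and Bowtie, RSEM and the build mm10 are named without versions in the submitters' processing notes. TPM values, which divide expected counts by effective length, were deposited in the same tables, and so were, per the file headers, each gene's length and effective length. Per the labels, 1 ug of total RNA harvested in Trizol went into each TruSeq library. Strandedness, annotation release and aligner settings were not given in the sources used here. Symbols, coordinates and coding sequences came from GENCODE M21 (GRCm38) and start windows from RefSeq (GRCm38.p6), which gave windows for 64 members.

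Libraries were grouped by title, 1 per group, and 8 comparisons were made with no test. Intervals are 95% Clopper-Pearson intervals of the counts, and cover counting error only. The members, lists and comparisons were chosen with earlier results of these data known. Genes named are the paralogues with their partners, the 3 stalk genes, the 4 highest and 4 lowest core genes, the 3 core genes farthest above and below the core median in each comparison, and genes of the lists. Other genes appear only as members of a count. Some genes that met this rule are not reported here. Of the 84 members, 29 had a count off a whole number by more than 0.005 in at least 1 library, and 2 had under 3 counts in every library. Alternatives were 0.1 or 5 TPM added, a floor of 1 TPM, a 4-fold gap, 4 other scalings (TMM factors of the counts or of the TPM, counts scaled to the library total (CPM), TPM rescaled to genes outside the family), removal of the length trend in 20 bins, core genes with whole counts alone, counts thinned to 2146964 per library (seed 11) and leaving out a library. The size rule was also tested on simulated data. TMM factors came from edgeR 4.0.16 under R 4.3.3. All else ran under Python 3.11.15 (pandas 2.3.3, numpy 2.4.6, scipy 1.17.1), and plots were drawn with matplotlib 3.10.9.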

Additional observations from a re-analysis of the deposited data

How the results depend on the processing

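Of the 309 values recomputed under an alternative, 250 stayed within the limits set for no change and 59 moved. A change of direction was looked for in the core medians alone, and 0 of them changed direction. Counts of called genes and family shares were sorted only as unchanged or moved. Values below are core medians (log2) or counts of the 76 core genes called. Shares of all genes called under these alternatives were not counted. A 4-fold gap called 8 genes for neuron against glia, 11 higher and 1 lower for the library labelled R1 ESC against the MEF libraries, 23 for MEF against brain, 14 for neuron against brain and 0 for glia against brain. With TMM factors of the counts the medians were 1.20 for the library labelled R1 ESC (4 lower), 2.34 for MEF against brain, 1.92 for neuron against brain, 0.66 for glia against brain (8 called), -0.0548 for cortex against hippocampus and -0.13 for ICR against OG2 MEF. With TMM factors of the TPM they were 1.85 for neuron against glia (67 called), 2.59 for the library labelled R1 ESC (68 higher, 0 lower), 2.55 for MEF against brain, 2.48 for neuron against brain, -0.38 for cerebellum (1 lower) and -0.15 for ICR against OG2 MEF (1 lower). CPM gave 1.88 for neuron against glia (65 called), 1.78 for the library labelled R1 ESC (51 higher, 0 lower), 2.38 for MEF against brain, 2.39 for neuron against brain and -0.0003 for cortex against hippocampus, and family shares of 1.06%, 1.25%, 1.27%, 1.89%, 6.72%, 6.35%, 6.80% and 32.5% of counts in cerebellum, cortex, hippocampus, glia, neuron, ICR MEF, OG2 MEF and the library labelled R1 ESC. Rescaling to genes outside the family gave 1.28 for the library labelled R1 ESC (3 lower), 2.19 for MEF against brain and 1.78 for neuron against brain. Without the length trend the values were 0.16 for neuron against glia (14 higher, 2 lower), 12 lower for the library labelled R1 ESC, 0.50 for neuron against brain (14 called), 0.38 for glia against brain (1 called) and -0.37 for cerebellum (1 lower). With core genes of whole counts alone, 47 of 51 were called for MEF against brain, 40 of 51 for neuron against brain and 3 of 52 for glia against brain. Thinned counts gave 1 lower for cerebellum. The cause of these moves was not tested, other than that a scaling shifts all genes of a library by construction and the whole-count set is smaller. Leaving out a library where a side had more than 1 kept every such value within the limits. No paired analysis was possible because the labels give no replicate numbers and each group is 1 library. Depth limits the low members: 3 counts are worth more than 1 TPM for Rpl10l and more than 2 TPM for Rpl39l in most libraries.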
